A study of Mus musculus with 48 samples.

Results

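The genes described here are 9 ligand-sensing transcription factors of the mouse liver: Nr1i2 (encoding PXR), Nr1i3 (CAR), Ahr (AHR), Rxra (RXRα), Esr1 (ERα), Nr3c1 (GR), Nr1h3 (LXRα), Thrb (TRβ) and Rora (RORα). They were listed by gene symbol, with no threshold on a measured value, and are 9 of the 20622 genes in the RNA tables and of the 16269 genes that had a transcript in the ribosome tables. All 9 passed the filter on low counts in every comparison. AHR is a basic helix-loop-helix PAS protein and not a nuclear receptor, and it is kept with the others because it senses the same kinds of foreign compounds as PXR and CAR.

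PXR, CAR and AHR sense drugs, bile acids, bilirubin and planar aromatic compounds in hepatocytes, and switch on cytochrome P450 enzymes, conjugating enzymes and transporters. RXRα is the common dimerization partner of PXR, CAR, LXRα and TRβ, whereas GR and ERα bind DNA as homodimers and RORα binds as a monomer. The hormone receptors carry glucocorticoid, thyroid hormone, estrogen and oxysterol signals into hepatic glucose, lipid and bile acid metabolism, and RORα feeds into the circadian clock.

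Each liver gave 1 library of ribosome-protected fragments (RPFs, short mRNA pieces shielded by translating ribosomes) and 1 of cytoplasmic RNA. By the labels all 24 mice were male, aged 2 to 4 months, and weighed at least 20 g, on a mixed C57BL/6 background. The paper, by contrast, reports both sexes in equal numbers outside its low-dose virus and Gls2CreER experiments. The 4 genotypes were Wild-type (WT), Ctnnb1ex3/+ (B, a stabilized form of β-catenin), R26-LSL-MYC (M, a MYC transgene at Rosa26) and Ctnnb1ex3/+; R26-LSL-MYC (BM), with 3 mice per genotype at each of days 4 and 10 post-induction. All mice, WT included, received AAV8.TBG.Cre, a virus in which the hepatocyte promoter TBG drives Cre, so recombination was directed to hepatocytes while the lysate came from whole liver. The dose was 2e+11 genome copies, per ml by the paper's methods and 1 label, and per mouse by another label. Each replicate was a separate mouse, and the B, M and BM mice of a day were compared with the same 3 WT mice of that day, so these comparisons share their controls.

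Library totals ranged from 9742197 to 14380713 RPF counts and from 3254141 to 6540116 RNA counts. The recombined β-catenin allele was visible in Glul, a β-catenin target of the perivenous hepatocyte. At day 4 Glul was at 825 to 862 RPF CPM (counts scaled to a common library size) in WT mice against 3061 to 4648 in B and 3640 to 4207 in BM. At day 10 it was at 511 to 851 in WT mice, 3309 to 5185 in B, and 3479, 2487 and 1629 in the 3 BM mice. Myc at day 4 was at 57.5 to 62.1 RPF CPM in M and 44.4 to 59.2 in BM, against 2.43 to 18.3 in WT and 11.9 to 35.3 in B. BM mouse 1 of day 10 correlated least with its group. Its mean correlation with the other mice of its group was 0.926 in RPFs and 0.947 in RNA, whereas all other mice were at 0.955 or more in RPFs and 0.965 or more in RNA, and changes against WT in that group are therefore also given without it for the 9 genes, and the counts of the target lists likewise. With 3 mice, which of them is unusual cannot be told from this. Axin2, another β-catenin target, was at 26.7 RPF CPM in mouse 1 and at 10.5 and 6.20 in mice 2 and 3, beside 23.6 to 28.4 in BM mice at day 4. The summed blood cell markers were 446 in mouse 1 and 1398 and 1907 in mice 2 and 3. The labelled tissue was matched by its markers, as the 9 hepatocyte genes counted summed to between 109789 and 122127 RPF CPM in WT mice at day 4. In every mutant mouse that sum lay below every WT mouse of its day. At day 4 it was 90485 to 108222 in B, 72620 to 91478 in M and 57246 to 67387 in BM, and at day 10 it was 67118 to 69598 in B, 69179 to 70708 in M and 55734 to 64996 in BM against 107103 to 133269 in WT. In bulk liver, fewer cells of a type and less RNA per cell cannot be told apart.

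Gene positions are given on the GRCm39 build used by the authors. Nr1i2 lies at chr16:38068685-38115216, Nr1i3 at chr1:171041506-171048270, Ahr at chr12:35547973-35585057, Rxra at chr2:27566452-27653330 and Nr1h3 at chr2:91014394-91033417. Esr1 lies at chr10:4561593-4955626, Thrb at chr14:4429815-4809435 and Rora at chr9:68561068-69295528. RPFs were counted in the coding exons of 1 transcript per gene, the most abundant one, with coding lengths from 1074 bases (Nr1i3) to 2415 bases (Ahr). For Ahr and Nr1i2 that transcript was the only isoform in the tables, while for the other 7 it held between 17.0% (Nr1i3) and 61.2% (Rora) of the gene's RNA in the individual mice.

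The study activated β-catenin and MYC, so the 250 bases upstream of the members' start sites were searched for the core letters bound by their DNA partners. These windows came from RefSeq on the GRCm38.p6 build, which differs from the build of the gene positions above, and 7 of the 9 genes had 11 windows among 32851 in all. The MYC E-box CACGTG, which is its own reverse complement, stood in 6.02% of all windows and in 2 of the 11, those of Nr1i3 and of 1 of the 2 Thrb starts. The TCF letters TTCAAAG or their reverse complement CTTTGAA stood in 4.46% of all windows and in 1 of the 11, that of Nr1i2. The 3 windows with a match are printed 5′ to 3′ along the gene, with the matched letters in capitals, at chr1:171213720-171213969 (plus strand, Nr1i3), chr14:17981394-17981643 (plus strand, Thrb) and chr16:38294825-38295074 (minus strand, Nr1i2). For Thrb the RefSeq table gives the plus strand of GRCm38.p6, whereas the GRCm39 annotation places the gene on the minus strand.
Nr1i3: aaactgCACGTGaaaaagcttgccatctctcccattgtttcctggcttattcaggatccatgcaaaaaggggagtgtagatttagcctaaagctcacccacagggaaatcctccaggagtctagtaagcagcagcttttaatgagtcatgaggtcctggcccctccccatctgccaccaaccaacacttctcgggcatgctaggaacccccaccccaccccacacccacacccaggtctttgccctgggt
Thrb: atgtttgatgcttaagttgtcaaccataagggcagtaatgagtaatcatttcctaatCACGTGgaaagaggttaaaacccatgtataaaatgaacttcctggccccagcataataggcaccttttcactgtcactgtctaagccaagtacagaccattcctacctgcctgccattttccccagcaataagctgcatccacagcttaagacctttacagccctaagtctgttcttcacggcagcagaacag
Nr1i2: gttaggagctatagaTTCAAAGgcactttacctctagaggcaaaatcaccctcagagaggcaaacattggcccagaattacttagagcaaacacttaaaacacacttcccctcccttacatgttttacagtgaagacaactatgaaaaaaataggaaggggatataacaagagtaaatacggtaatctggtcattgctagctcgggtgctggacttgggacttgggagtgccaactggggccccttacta
The windows of Esr1, Nr1h3, Rora and Rxra held neither set of letters. The GC content of the members' windows ran from 44% (Nr1i2 and the printed Thrb window) to 81.2% (the first Rxra window), with a median of 52.4% over all windows. A match of this length is a description of the letters only.

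In WT livers the receptors differed widely in level when compared per length. By RNA in TPM (RNA abundance scaled for transcript length and library size), Rxra was highest at day 4 with 58.6 ± 3.18 (SD, n = 3) and Ahr lowest with 7.59 ± 0.630, and the order between them was Nr1h3 (43.6), Nr3c1 (36.8), Rora (32.8), Thrb (19.9), Nr1i2 (15.8), Esr1 (14.8) and Nr1i3 (11.1). Only 3 neighbours in this order had mice that did not overlap, Rxra above Nr1h3, Rora above Thrb and Thrb above Nr1i2. By RPF CPM per kilobase of counted coding sequence, Rxra again led with 98.7 ± 2.27, followed by Nr3c1 (36.8), Rora (35.4), Nr1i3 (33.2), Nr1h3 (29.2), Ahr (25.2), Nr1i2 (20.6), Esr1 (13.8) and Thrb (10.0 ± 2.01). The neighbours Nr3c1, Rora, Nr1i3 and Nr1h3 overlapped, while Rxra stood clear of Nr3c1 and each gene from Nr1h3 down stood clear of the next. Ahr and Nr1i3, the bottom of the RNA order, thus lay in the middle of the ribosome order, and Thrb lay at its end. At day 10 Rxra was again highest on both scales (67.4 TPM and 81.5 RPF CPM per kilobase), with Ahr lowest in RNA (9.75 TPM) and Thrb lowest in RPFs (9.62 RPF CPM per kilobase).

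**Figure D1:**
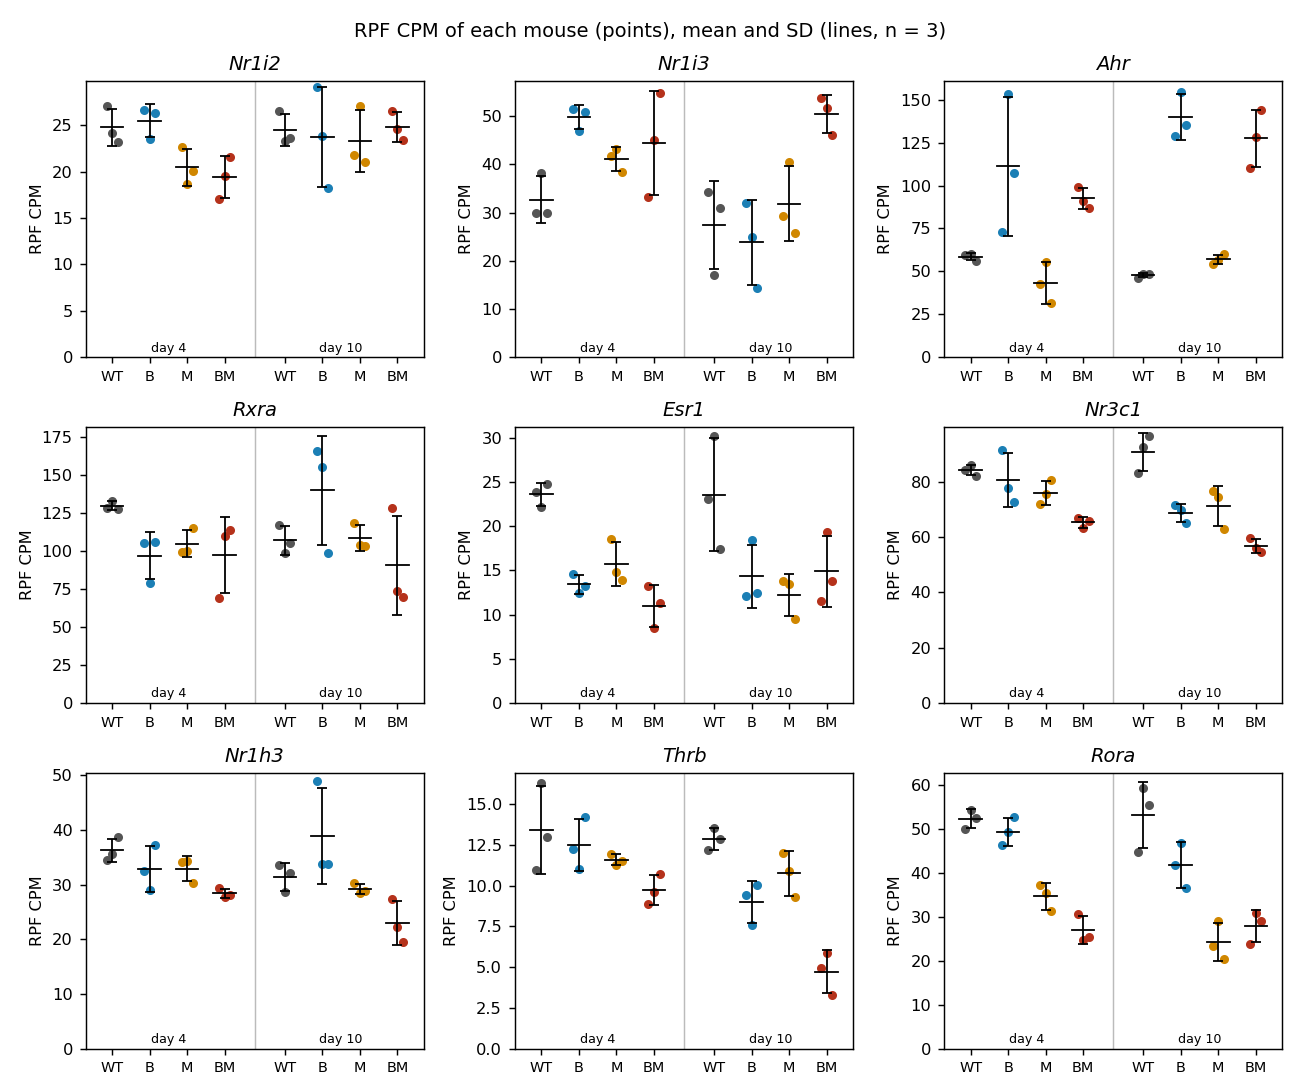
RPF CPM of the 9 genes, with a panel per gene, a point per mouse and lines at the mean and SD of the 3 mice of each of the 8 groups. Ahr was highest in the 4 groups with the Ctnnb1ex3/+ allele (group means of 92.5 to 140 CPM against 43.2 to 58.6 in the other 4), whereas Thrb was lowest in BM mice at day 10 (3.30 to 5.90 CPM).

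Across the 9 genes, more changed in BM mice than in either single mutant, mostly downwards. A gene was called when edgeR's quasi-likelihood test, fitted across all genes of a comparison, gave a Benjamini-Hochberg adjusted p under 0.1. At day 4, 4 of the 9 were called in RPFs in B mice (2 higher, 2 lower) where 12.5% of all genes were called, 4 in M mice (1 higher, 3 lower) where 33.3% were called, and 9 in BM mice (2 higher, 7 lower) where 50.9% were called. At day 10, 5 were called in B mice (1 higher, 4 lower, all genes 25.2%), 3 in M mice (all lower, all genes 19.4%) and 7 in BM mice (2 higher, 5 lower, all genes 46.8%). With all 8 groups in one fit, the day 4 counts of B and M mice dropped to 2 each, where 4.78% and 19.9% of all genes were called, while BM mice had 7, where 38.4% were. The median RPF log2 change of the 9 genes was -0.34 at day 4 and -0.46 at day 10 in BM mice, beside -0.00074 and 0.03 over all genes tested. These directions hold on TMM-scaled counts, a scaling that takes most genes as unchanged. In RNA TPM, scaled to the library total, all 7 genes lower in BM RPFs at day 4 had higher means than WT (Nr3c1 55.7 against 36.8). At day 10 Esr1, Nr3c1, Nr1h3 and Thrb had lower TPM means in BM (Thrb 14.1 against 29.6), and Rora a higher one.

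RNA gave much the same counts. At day 4, 3 genes were called in B mice (all genes 8.14%), 2 in M mice (all genes 23.7%) and 8 in BM mice (all genes 41.9%). At day 10, 4 were called in B mice (all genes 15.6%), 4 in M mice (all genes 15.7%) and 7 in BM mice (all genes 45.7%). Leaving out BM mouse 1 of day 10 raised the count in BM mice to 8 in RPFs and to 8 in RNA, while the share of all genes called rose to 66.3% and 57.1%. RNA changes of BM without that mouse were 1.28 for Ahr, 0.90 for Nr1i3, -0.65 for Esr1, -1.10 for Nr3c1, -0.98 for Nr1h3, -1.62 for Thrb and -0.30 for Rora, all called, and 0.18 for Rxra, not called (adjusted p = 0.189). With all 3 mice the changes of Esr1 and Rxra were -0.57 and 0.19. Every gene called in both RPFs and RNA of a comparison with WT changed in the same direction in both.

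**Figure D2:**
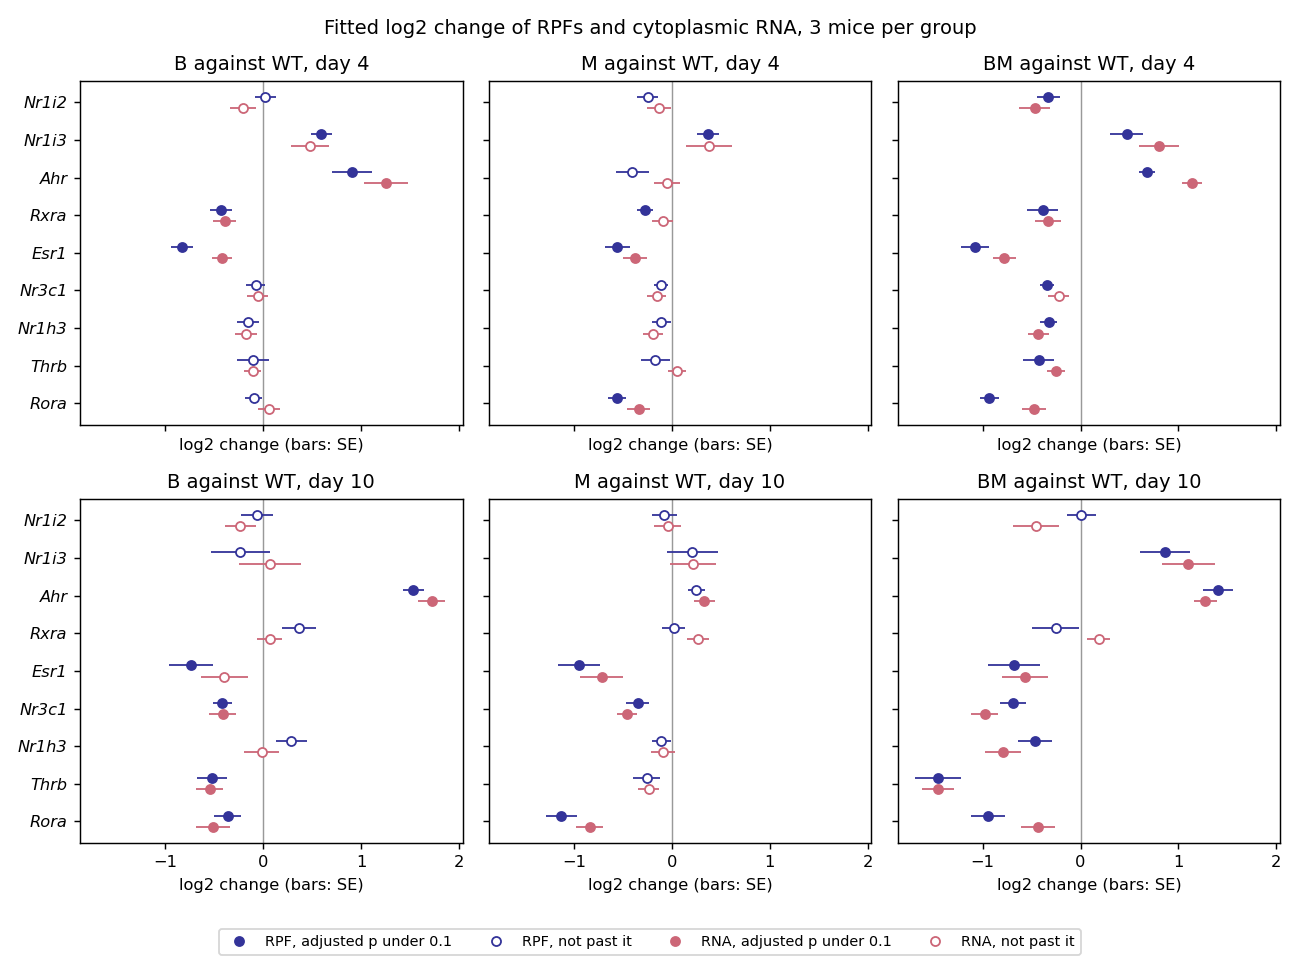
Log2 changes of the 9 genes against WT in B, M and BM mice at days 4 and 10, with RPFs and RNA side by side and bars at 1 SE. Filled points passed an adjusted p under 0.1 and open points did not. Ahr lies to the right of 0 in B and BM at both days and Esr1 to the left in every panel, with Thrb farthest left in BM at day 10 (-1.45 in RPFs and -1.46 in RNA).

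Among the xenobiotic sensors, Ahr showed the widest range over the 8 groups, with a ratio of 3.23 between the highest and the lowest group mean of RPF CPM. AHR binds dioxins and tryptophan-derived ligands and induces the CYP1 enzymes. At day 4 its RPF CPM was 59.8, 60.0 and 56.2 in WT mice, 72.6, 153 and 107 in B, 42.7, 55.6 and 31.3 in M, and 99.4, 91.2 and 87.1 in BM. All B and BM mice lay above all WT mice, and all M mice below them. The log2 change was 0.91 (SE 0.205, adjusted p = 0.0210) in B, 0.68 (SE 0.0804, adjusted p = 5.3e-05) in BM and -0.40 (SE 0.168, adjusted p = 0.109, not called) in M.

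At day 10 Ahr was at 46.4, 48.7 and 48.3 RPF CPM in WT mice, 129, 155 and 135 in B, 54.3, 56.7 and 59.8 in M, and 110, 128 and 144 in BM. The B and BM mice were more than 2-fold above every WT mouse, and the M mice lay just above WT. The log2 change was 1.53 (SE 0.108, adjusted p = 8.7e-05) in B and 1.40 (SE 0.153, adjusted p = 0.000791) in BM, and 1.50 in BM without mouse 1. In M it was 0.25 (SE 0.0907, adjusted p = 0.108, not called). RNA rose in the same comparisons, by 1.26 in B and 1.14 in BM at day 4 and by 1.72 and 1.27 at day 10. The RNA of M mice at day 10 was also called (0.33, SE 0.108, adjusted p = 0.0795), a call lost without any 1 of the 6 mice (adjusted p from 0.10 to 0.25). The 4 calls of B and BM in RPFs and the 4 in RNA were kept under every alternative setting tried.

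Nr1i3 was higher in BM mice at both days and in B and M mice at day 4. CAR is a constitutively active receptor that induces CYP2B enzymes and is more highly expressed around the central vein. At day 4 its RPF CPM was 29.9, 38.2 and 29.8 in WT mice, 51.5, 46.9 and 50.9 in B, 41.7, 43.2 and 38.4 in M, and 33.2, 45.2 and 54.8 in BM. B and M mice did not overlap WT, whereas 1 BM mouse lay inside the WT range. The log2 change was 0.60 (SE 0.111, adjusted p = 0.00769) in B, 0.37 (SE 0.112, adjusted p = 0.0342) in M and 0.47 (SE 0.171, adjusted p = 0.0451) in BM. The BM call was lost without BM mouse 3 (adjusted p = 0.18), WT mouse 1 (0.14) or WT mouse 3 (0.15), and the M call without M mouse 1 (0.11), WT mouse 1 (0.14) or WT mouse 3 (0.13). All 3 calls were lost with the 8 groups in one fit (adjusted p = 0.254 for B, 0.425 for M and 0.187 for BM).

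At day 10 Nr1i3 was at 34.3, 17.1 and 31.0 RPF CPM in WT mice, 32.1, 24.9 and 14.4 in B, 29.3, 40.6 and 25.7 in M, and 53.7, 51.7 and 46.0 in BM. The BM mice were above all others of that day, while B and M mice overlapped WT. The BM change was 0.86 (SE 0.254, adjusted p = 0.0318) in RPFs and 1.10 (SE 0.274, adjusted p = 0.0136) in RNA, and 0.82 in RPFs without mouse 1. In RNA the BM call of day 4 (0.80, SE 0.206, adjusted p = 0.00797) was the only other RNA call of this gene against WT.

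Nr1i2 varied least in RPFs, though Rxra varied less in RNA. PXR, the product of Nr1i2, is the broad drug and bile acid sensor that induces CYP3A enzymes. The ratio between its highest and lowest group mean was 1.31 in RPF CPM and 1.50 in RNA CPM (1.34 for Rxra in RNA), and no neighbouring pair among the 8 groups ordered by RPF CPM was free of overlap. At day 4 WT mice were at 27.0, 24.2 and 23.2 RPF CPM and BM mice at 17.1, 19.5 and 21.6, with every BM mouse below every WT mouse. The BM change was -0.33 (SE 0.118, adjusted p = 0.0422) in RPFs and -0.47 (SE 0.157, adjusted p = 0.0333) in RNA, and both calls were lost without BM mouse 1 (0.12 and 0.14) or WT mouse 1 (0.16 and 0.12). At day 10 no comparison of Nr1i2 with WT was called. The BM change in RPFs was 0.0069 (adjusted p = 0.976) with all 3 mice and -0.04 (adjusted p = 0.808) without mouse 1. In RNA it was -0.46 (adjusted p = 0.159) with all 3, and it was called lower without mouse 1 (-0.80, adjusted p = 0.00118).

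Rxra, the common partner, was lower at day 4 in all 3 mutant genotypes. Its RPF CPM was 128, 133 and 127 in WT mice, 105, 79.1 and 106 in B, 99.4, 99.5 and 115 in M, and 68.7, 109 and 113 in BM. None of the 9 mutant mice reached a WT mouse, and BM mouse 1 was the lowest. The log2 change was -0.43 (SE 0.112, adjusted p = 0.0392) in B, -0.27 (SE 0.0789, adjusted p = 0.0282) in M and -0.39 (SE 0.158, adjusted p = 0.0684) in BM. The B call was lost without WT mouse 1 (0.11) or WT mouse 3 (0.10), the M call without M mouse 1 (0.12), and the BM call without BM mouse 1 (0.10) or any WT mouse (0.12 to 0.14). These 3 calls too were lost with the 8 groups in one fit (adjusted p = 0.416 for B, 0.392 for M and 0.155 for BM).

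At day 10 Rxra was at 117, 98.5 and 105 RPF CPM in WT mice, 165, 155 and 98.7 in B, 118, 104 and 103 in M, and 128, 73.3 and 69.8 in BM. B mouse 3 and BM mouse 1 each lay apart from the other 2 mice of their group, and no comparison with WT was called. The BM change was -0.26 (SE 0.244, adjusted p = 0.437) with all 3 mice and -0.59 (adjusted p = 0.00170) without mouse 1, and without B mouse 3 the B change was 0.56 (adjusted p = 0.012). RNA of Rxra was called at day 4 only, in B (-0.39, adjusted p = 0.0763) and BM (-0.34, adjusted p = 0.0673). Each of these was lost on leaving out any 1 of 4 mice, with an adjusted p from 0.14 to 0.30 in B (mice 2 and 3 of B and 1 and 2 of WT) and from 0.11 to 0.28 in BM (mice 1 and 3 of BM and 1 and 2 of WT), and the B call was also lost with the 8 groups in one fit (0.152).

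Of the hormone receptors, Esr1 was lower in RPFs in all 6 comparisons with WT. ERα is the receptor through which estrogens act on hepatic lipid and lipoprotein metabolism, in males too. At day 4 its RPF CPM was 23.9, 22.2 and 24.8 in WT mice, 14.6, 12.5 and 13.3 in B, 18.5, 14.8 and 13.9 in M, and 13.2, 8.52 and 11.3 in BM. WT mice were above all 9 mutant mice. The change on the log2 scale was -0.83 (SE 0.112, adjusted p = 0.00123) in B, -0.55 (SE 0.124, adjusted p = 0.00888) in M and -1.08 (SE 0.147, adjusted p = 0.000151) in BM, and these 3 calls held under every setting.

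At day 10 Esr1 was at 23.1, 30.2 and 17.4 RPF CPM in WT mice, 12.1, 18.5 and 12.5 in B, 13.8, 13.5 and 9.54 in M, and 11.5, 19.3 and 13.8 in BM. The WT mice were more spread than at day 4, and 1 mouse each of B and BM overlapped them. The log2 change was -0.73 (SE 0.223, adjusted p = 0.0518) in B, -0.94 (SE 0.217, adjusted p = 0.0280) in M and -0.68 (SE 0.266, adjusted p = 0.0796) in BM. The B call was lost without B mouse 1 (0.14), WT mouse 1 (0.12) or WT mouse 2 (0.15), and the BM call without BM mouse 3 (0.17), WT mouse 1 (0.17) or WT mouse 2 (0.25), and the BM change was -0.52 (adjusted p = 0.0667) without mouse 1. RNA of Esr1 was called lower in 5 of the 6 comparisons, B at day 10 being the exception, with changes from -0.38 (M, day 4) to -0.78 (BM, day 4). The last of these held under every setting, and the other 4 were each lost on leaving out at least 1 mouse, those of B and M at day 4 also with the 8 groups in one fit (0.355 and 0.232).

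Nr3c1 was lower in BM mice at day 4 and in all 3 genotypes at day 10. Nr3c1 lies on chromosome 18, and its product GR is the receptor of corticosterone and drives gluconeogenic and anti-inflammatory genes. At day 4 its RPF CPM was 84.1, 85.8 and 82.2 in WT mice, 91.6, 77.8 and 72.5 in B, 71.8, 75.5 and 80.6 in M, and 66.7, 63.2 and 65.9 in BM. BM mice were below all others, and the change was -0.34 (SE 0.0735, adjusted p = 0.00314). At day 10 Nr3c1 was at 83.0, 92.4 and 96.6 RPF CPM in WT mice, 71.5, 69.7 and 65.0 in B, 76.5, 74.3 and 62.9 in M, and 59.5, 56.2 and 54.5 in BM. No mutant mouse overlapped WT, and BM mice were the lowest. The log2 change was -0.41 (SE 0.101, adjusted p = 0.0226) in B, -0.35 (SE 0.117, adjusted p = 0.0904) in M and -0.69 (SE 0.135, adjusted p = 0.00701) in BM, and -0.72 in BM without mouse 1. The M call was lost without any 1 of the 6 mice (adjusted p from 0.11 to 0.24), whereas the B and BM calls of day 10 and the BM call of day 4 held under every setting. Its RNA in BM mice at day 10 was 136, 106 and 114 CPM against 241, 220 and 240 in WT, a change of -0.98 (SE 0.141, adjusted p = 0.00106).

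Thrb had the largest fall of the 9 genes. TRβ is the main hepatic receptor of thyroid hormone. At day 4 its RPF CPM was 10.9, 16.3 and 13.0 in WT mice, 12.2, 11.0 and 14.2 in B, 11.9, 11.3 and 11.5 in M, and 8.86, 9.63 and 10.7 in BM. Only BM mice lay below WT, and the change of -0.43 (SE 0.159, adjusted p = 0.0490) was lost without BM mouse 1 (0.13), BM mouse 2 (0.10) or WT mouse 2 (0.19). At day 10 Thrb was at 12.2, 13.5 and 12.9 RPF CPM in WT mice, 9.40, 7.57 and 10.1 in B, 12.0, 10.9 and 9.31 in M, and 4.93, 5.90 and 3.30 in BM. All 9 mutant mice lay below WT at day 10, with BM mice well below the rest. The change was -1.45 (SE 0.237, adjusted p = 0.00347) in BM, -1.48 without mouse 1, -0.52 (SE 0.153, adjusted p = 0.0461) in B and -0.26 (SE 0.137, adjusted p = 0.259, not called) in M. RNA of the BM mice was 35.0, 28.4 and 24.1 CPM against 86.6, 76.7 and 77.3 in WT (change -1.46, SE 0.163, adjusted p = 0.000314). The B call in RPFs was lost without B mouse 2 (0.16), WT mouse 2 (0.10) or WT mouse 3 (0.13). Thrb had the fewest RPF counts of the 9 genes, 40 to 167 per library.

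Nr1h3 was called lower in BM mice. LXRα senses oxysterols and drives cholesterol efflux and fatty acid synthesis. Its RPF CPM at day 4 was 34.6, 35.7 and 38.7 in WT mice and 29.4, 27.9 and 28.1 in BM (change -0.33, SE 0.0889, adjusted p = 0.0117). The M mice of day 4 were at 34.1, 34.4 and 30.3, also below every WT mouse, but the change was not called (-0.11, adjusted p = 0.454). At day 10 WT mice were at 33.6, 28.6 and 32.1, BM mice at 27.4, 22.2 and 19.5, and B mice at 49.0, 33.7 and 33.8, so that BM mice lay below and B mice above WT. The BM change was -0.46 (SE 0.174, adjusted p = 0.0709) in RPFs and -0.79 (SE 0.180, adjusted p = 0.00908) in RNA, and the B change was 0.29 (SE 0.157, adjusted p = 0.242, not called). The RPF call of day 10 was lost without BM mouse 2 (0.19), BM mouse 3 (0.20), WT mouse 1 (0.19) or WT mouse 3 (0.17), and it was -0.60 (adjusted p = 0.00353) without BM mouse 1.

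Rora fell in M and BM mice at both days and in B mice at day 10. RORα activates clock genes such as Bmal1 and bile acid enzymes such as Cyp8b1. At day 4 its RPF CPM was 50.0, 54.4 and 52.6 in WT mice, 46.2, 49.2 and 52.7 in B, 37.3, 35.4 and 31.3 in M, and 30.7, 24.8 and 25.5 in BM. B mice overlapped WT, M mice lay below both, and BM mice lay below M. The change was -0.56 (SE 0.0903, adjusted p = 0.00172) in M and -0.93 (SE 0.0992, adjusted p = 2.6e-05) in BM. At day 10 Rora was at 44.7, 59.3 and 55.5 RPF CPM in WT mice, 41.9, 46.9 and 36.6 in B, 23.4, 29.1 and 20.5 in M, and 23.7, 30.9 and 29.2 in BM. M and BM mice overlapped each other and lay far below WT. The change was -1.13 (SE 0.158, adjusted p = 0.00552) in M, -0.94 (SE 0.175, adjusted p = 0.00576) in BM (-0.83 without mouse 1) and -0.36 (SE 0.134, adjusted p = 0.0967) in B. The 4 RPF calls of M and BM held under every setting, and the B call was lost without any B mouse or without WT mouse 2 or 3 (adjusted p from 0.11 to 0.26).

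In BM mice the fitted fall of Rora was smaller in RNA than in RPFs. The RNA fell by 0.47 at day 4 (SE 0.119, adjusted p = 0.00692) and by 0.43 at day 10 (SE 0.172, adjusted p = 0.0781), beside falls of 0.93 and 0.94 in RPFs. Tested as RPFs relative to RNA, this difference was not called in the main edgeR fit (adjusted p = 0.264 at day 4 and 0.512 at day 10). The RNA call of day 10 was lost without BM mouse 2 (0.15), WT mouse 2 (0.20) or WT mouse 3 (0.16).

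Translation efficiency (TE, RPFs relative to RNA, tested as an interaction of library type and genotype) was called for 1 of the 9 genes in 1 of the 6 comparisons with WT. That gene was Ahr in BM mice at day 4, where 2.23% of all genes were called. Its log2 ratio of RPF CPM to RNA CPM was 0.71, 0.62 and 0.55 in WT mice and 0.16, 0.07 and 0.23 in BM, so the BM mice lay below all WT mice. The change was -0.46 (SE 0.122, adjusted p = 0.0806), and it was called in 4 of 13 alternatives, being lost without any 1 of the 6 mice (adjusted p from 0.14 to 0.35). With the RPF and RNA libraries of a mouse joined by a mouse term, the adjusted p was 0.0116, in a fit that called 6.16% of all genes. With the 8 groups in one fit it was 0.961.

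Rora came next. Its log2 ratio was -2.17, -1.70 and -2.09 in WT mice and -2.49, -2.53 and -2.40 in BM at day 4, and -2.16, -2.13 and -2.04 in WT and -2.51, -2.53 and -2.76 in BM at day 10. BM mice were below WT mice at both days without overlap. The change was -0.46 (SE 0.161, adjusted p = 0.264) at day 4 and -0.53 (SE 0.254, adjusted p = 0.512) at day 10. With the mouse term both passed, at -0.47 (adjusted p = 0.0169, all genes 6.16%) and -0.52 (adjusted p = 0.0836, all genes 5.21%).

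In the other 5 comparisons edgeR called 0 of the 9 genes in TE. The share of all genes called was 0.0488% in B and 0.971% in M at day 4, and 0.0564%, 0% and 0.259% at day 10 for B, M and BM. At an unadjusted p under 0.05 there was 1 gene in B at day 4 (Esr1, -0.40) and 0 in the other 4 comparisons, and DESeq2 also called 0 in all 5. Without BM mouse 1, 3 genes were called in BM at day 10, where 21.5% of all genes were called, Nr1i2 higher (0.73, adjusted p = 0.0196) and Rxra (-0.79, adjusted p = 0.00425) and Rora (-0.56, adjusted p = 0.0809) lower. BM mouse 1 was at -0.54 for Nr1i2 beside 0.29 and -0.05 in the other 2 mice, and at -0.48 for Rxra beside -1.33 and -1.31.

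**Figure D3:**
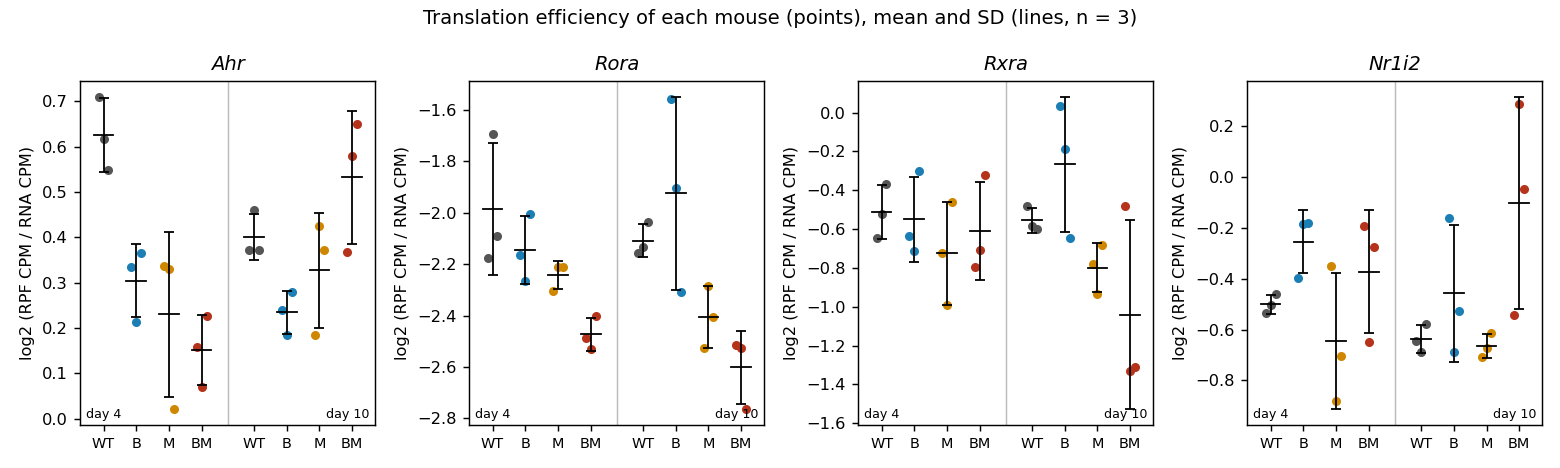
Log2 ratio of RPF CPM to RNA CPM per mouse for Ahr, Rora, Rxra and Nr1i2 in the 8 groups, with lines at the mean and SD of 3 mice. BM mice lie below WT for Ahr at day 4 and for Rora at both days, and at day 10 BM mouse 1 lies near WT for Rxra and Nr1i2 while the other 2 BM mice do not.

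The BM mice were also compared with each single mutant, which asks what each allele adds to the other. Against B at day 4, 4 genes were called in RPFs (all lower, all genes 44.7%), led by Rora (-0.83, adjusted p = 0.000165), and 2 in RNA (all genes 34.8%). The other 3 were Nr1i2 (-0.36), lost without BM mouse 1 (0.107), Nr3c1 (-0.27), lost without B mouse 1 or BM mouse 2 or 3 (0.14 to 0.18), and Thrb (-0.32), lost without any 1 of 4 mice (0.13 to 0.27) and with DESeq2 (0.185). Against M at day 4, 5 were called in RPFs (all genes 38.2%), of which Ahr was higher (1.08, adjusted p = 0.00112) and Esr1, Nr3c1, Nr1h3 and Rora were lower, and 4 in RNA (all genes 30.5%). Of these the Nr1h3 call (-0.23, adjusted p = 0.0711) was lost without any 1 of 5 mice, M mouse 3 being the exception (0.13 to 0.21), with DESeq2 (0.174) and with a replicate block (0.107), that of Esr1 (-0.53) without BM mouse 2 (0.115) or M mouse 1 (0.147), and that of Nr3c1 (-0.24) without M mouse 3 (0.103). At day 10, 4 genes were called in RPFs against B (all genes 36.5%), with Nr1i3 higher (1.10) and Nr1h3 (-0.74), Thrb (-0.92) and Rora (-0.57) lower, and 5 in RNA (all genes 31.7%). The calls of Nr1h3, Thrb and Rora were each lost on leaving out any 1 of 3 or 4 mice (adjusted p from 0.11 to 0.18), but not on leaving out BM mouse 1. Against M at day 10, 3 were called in RPFs (all genes 32.7%), with Nr1i3 (0.64) and Ahr (1.15) higher and Thrb lower (-1.21, adjusted p = 0.0183), and 5 in RNA (all genes 32.9%). The Nr1i3 call (adjusted p = 0.0628) was lost without BM mouse 2 (0.138), M mouse 1 (0.201) or M mouse 3 (0.143). For Ahr the difference between BM and B was not called in RPFs at either day, although it was called at day 4 without B mouse 1 (-0.45, adjusted p = 0.0340). Its RNA was called lower in BM than in B at day 10 (-0.42, adjusted p = 0.0734), a call lost without B mouse 2 or 3 or BM mouse 2 or 3 (adjusted p from 0.10 to 0.26) and with DESeq2 (0.11). For Rora the difference between BM and M in RPFs was called at day 4 (-0.38, adjusted p = 0.0253) but not at day 10, and the day 4 call was lost without BM mouse 2 (0.11), BM mouse 3 (0.11) or M mouse 1 (0.10). The day 10 counts against B ran from 1 to 6 in RPFs and from 2 to 6 in RNA on leaving out 1 mouse. Without BM mouse 1, 6 genes were called in RPFs and 6 in RNA against B, where 61.0% and 46.3% of all genes were called, and 6 and 7 against M, where 59.2% and 50.4% were. Rxra and Nr3c1 then joined the RPF calls against B (-0.93, adjusted p = 0.00675, and -0.28, adjusted p = 0.0619). Against M, Rxra (-0.57, adjusted p = 0.00632), Nr3c1 (-0.33, adjusted p = 0.0548) and Nr1h3 (-0.45, adjusted p = 0.0133) joined them.

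Whether a genotype's change differed between the days was tested as an interaction, day 10 minus day 4. Injection and harvest dates are not given in the sources used here, and the part of a batch in these interactions was not tested. In BM mice 3 genes differed in RPFs (all genes 35.7%), Ahr by 0.73 (SE 0.159, adjusted p = 0.00595), Nr3c1 by -0.34 (SE 0.137, adjusted p = 0.0876, and 0.165 with a replicate block) and Thrb by -1.01 (SE 0.289, adjusted p = 0.0229). In RNA 3 differed (all genes 30.0%), Nr3c1 by -0.76 (SE 0.176, adjusted p = 0.00753), Thrb by -1.21 (SE 0.177, adjusted p = 0.000326) and Rxra by 0.52 (SE 0.193, adjusted p = 0.0687). The difference was thus negative for Thrb and Nr3c1 in both RPFs and RNA, whereas that of Ahr was called in RPFs only. Without BM mouse 1 of day 10 the same 3 genes were called in RPFs, and Nr1h3 (-0.55, adjusted p = 0.0231) was called in RNA beside the other 3, while the share of all genes called rose to 57.3% and 43.5%. In B mice 1 gene differed in RPFs (all genes 17.2%), Rxra by 0.80 (SE 0.230, adjusted p = 0.0402), and edgeR called 0 in RNA (all genes 9.31%). In M mice edgeR called 0 in RPFs (all genes 1.18%) and 0 in RNA (all genes 1.2%). For these 3 counts of 0, an unadjusted p under 0.05 was met by 3, 3 and 4 genes, and DESeq2 called 0 each time.

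The known target genes of each receptor were read from lists of textbook targets. Of the 6 AHR targets tested at day 4, 4 rose in RPFs in B (median log2 change of the list 0.75) and 3 rose in BM (median 0.48), beside 12.5% and 50.9% of all genes called. The count in BM was thus near the share of all genes. Cyp1a2, the perivenous cytochrome P450 that served as the index target, was at 1087, 1099 and 1052 RPF CPM in WT mice, 2277, 3413 and 3329 in B and 1897, 2117 and 2109 in BM, with no overlap. It rose by 1.46 in B (SE 0.138, adjusted p = 0.000198) and by 0.94 in BM (SE 0.0858, adjusted p = 8.3e-06), and its TE in BM was lower by -0.74 (adjusted p = 0.0114). Nqo1, a quinone reductase, had the largest rise of the list in BM (1.31, SE 0.139, adjusted p = 2.4e-05).

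At day 10 Ahr was higher in BM mice, whereas its index target was not called there with all 3 mice. Cyp1a2 was at 1166, 641 and 1292 RPF CPM in WT mice, 2671, 2052 and 1438 in B, and 941, 260 and 180 in BM, so that B mice lay above WT while BM mice overlapped WT or lay below. The change was 0.97 in B (SE 0.282, adjusted p = 0.0449) and -1.18 in BM (SE 0.592, adjusted p = 0.150, not called). Glul, a perivenous β-catenin target, was at 3479, 2487 and 1629 RPF CPM in the same BM mice. The part of β-catenin in the level of Cyp1a2 was not tested. Of 7 AHR targets tested in BM, 2 rose and 2 fell (median -0.99, all genes 46.8%), with Cyp1b1 rising by 1.40 and Ugt1a6a falling by 1.12. Without BM mouse 1 all 7 were called, Cyp1a2 among them, as 3 rose and 4 fell (median -0.89, all genes 66.3%). The RNA median had the opposite sign, at 0.32 with 1 of 7 rising and 2 falling (all genes 45.7%), and at 0.30 with the same counts without BM mouse 1. In M mice 1 of 6 targets rose and 4 fell at day 4, Cyp1a2 among the falls (-0.28, adjusted p = 0.0154), and 1 of 7 fell at day 10, beside 33.3% and 19.4% of all genes.

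CAR and PXR share most of their targets, and these rose more often than they fell at day 4. Of 18 or 19 tested, 12 rose and 1 fell in B (median 0.53), 12 rose and 3 fell in M (median 0.34), and 11 rose and 4 fell in BM (median 0.35), where 12.5%, 33.3% and 50.9% of all genes were called. Cyp2c55, a steroid and fatty acid hydroxylase, had the largest rise in BM, with 63.5, 57.1 and 60.1 RPF CPM against 12.1, 12.3 and 12.2 in WT (2.33, SE 0.0925, adjusted p = 7.2e-08), and Cyp3a13 had the largest fall (-1.34). The index targets did not share one direction. Cyp3a11, the PXR index target, fell by 0.32 in M and by 0.84 in BM at day 4, and by 1.70 in B and 1.00 in BM at day 10. Its RPF CPM at day 10 was 5753, 3934 and 5389 in WT mice, 1477, 1756 and 1475 in B and 1428, 2857 and 3295 in BM, with no overlap with WT.

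Cyp2b10, the CAR index target, was read at low counts throughout. At day 4 it had 34, 33 and 38 RPF counts in the M libraries against 2, 2 and 5 in WT (log2 change 3.19, SE 0.383, adjusted p = 0.000368), and at day 10 it had 0 in all 3 B libraries against 29, 10 and 7 in WT. At day 10 the CAR and PXR list split, with 7 rising and 5 falling in B and 7 rising and 6 falling in BM of 19 tested (median in BM 0.05), while 1 of 19 was called in M, beside 25.2%, 46.8% and 19.4% of all genes. With BM mouse 1 left out, 7 rose and 8 fell of 20 (all genes 66.3%), and the median turned to -0.06. In RNA the BM median was -0.04 with all 3 mice. Gadd45b, a stress gene induced through CAR, had the largest rise in BM (5.40, with 4.52, 24.3 and 41.7 RPF CPM against 0.437, 0.818 and 0.361 in WT), and Ces2a, a carboxylesterase, the largest fall (-3.87, with 77.6, 67.6 and 60.1 against 1100, 822 and 1053). Reads of Cyp2b, Cyp2c, Cyp3a, Ces2 and Ugt1a genes can be shared with near-identical copies, so single members of those families are uncertain.

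Glucocorticoid receptor targets moved in opposite directions at the 2 days in BM mice. At day 4, 15 of 15 fell in RPFs in BM (median -1.32), with 7 of 15 falling in B and 6 of 15 in M, where 50.9%, 12.5% and 33.3% of all genes were called. At day 10, 9 of 15 rose and 0 fell in BM (median 1.95, all genes 46.8%), and 14 rose without BM mouse 1 (median 2.43, all genes 66.3%). The difference between the days was called as a rise in 14 of 15 in RPFs (15 without mouse 1) and in 13 of 15 in RNA, beside 35.7% and 30.0% of all genes. Pck1, the gluconeogenic carboxykinase, was at 2719, 4254 and 3248 RPF CPM in WT mice and at 87.8, 190 and 284 in BM at day 4 (-4.16, SE 0.362, adjusted p = 6.2e-06). Fkbp5, the GR cochaperone that served as the index target, was at 20.1, 17.7 and 16.9 RPF CPM in WT mice and at 58.4, 165 and 126 in BM at day 10 (2.66, SE 0.361, adjusted p = 0.00169), after a fall of 0.34 at day 4 (adjusted p = 0.0380). Mt2, a metallothionein, had the largest rise at day 10, from 1.05, 2.76 and 1.08 in WT to 148, 325 and 410 in BM (7.48), while its WT mice at day 4 were spread from 3.52 to 65.7. Nr3c1 itself was lower in BM mice at both days. Pck1, G6pc1 and Angptl4 are also in the list of fasting and feeding genes, and the summed RPF CPM of 14 fasting and feeding genes was at most 5886 in BM mice at day 4, 10866 to 12207 in B and 8486 to 10579 in M against 11104 to 12794 in WT. At day 10 it was 4780 to 6604 in BM, 7260 to 8843 in B and 5791 to 7992 in M against 10117 to 12386 in WT. The list holds genes of both fasting and feeding, so its sum does not tell one state from the other. In BM at day 10, 1 of the 13 tested rose and 7 fell in RPFs (all genes 46.8%). The part of feeding state in the result was not tested.

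Thyroid hormone receptor targets fell more often than they rose in BM mice. Of 8 tested, 6 fell and 1 rose at day 4 (median -1.16, all genes 50.9%), and of 9 tested 5 fell and 1 rose at day 10 (median -1.70, all genes 46.8%). Leaving out BM mouse 1 gave 5 falling and 3 rising at day 10 (median -2.16, all genes 66.3%). Dio1, the deiodinase used as a readout of hepatic thyroid hormone action, was at 57.4, 58.0 and 52.9 RPF CPM in WT mice, 23.3, 12.6 and 26.7 in B, 20.8, 35.6 and 28.2 in M, and 15.5, 16.3 and 13.8 in the BM mice of day 4. WT mice were above all mutants, with changes of -1.44 in B, -0.95 in M and -1.86 in BM (SE 0.0980, adjusted p = 2.2e-07). At day 10 WT mice were at 35.8, 21.0 and 30.3 and BM mice at 0.580, 0.0776 and 0.165 RPF CPM, a change of -6.56 (SE 0.484, adjusted p = 0.000149). Cpt1a, the carnitine palmitoyltransferase, was the 1 riser in BM at day 10 with all 3 mice (1.01, adjusted p = 0.0134), and Gpd2, a mitochondrial glycerophosphate dehydrogenase, the 1 riser at day 4 (0.61, adjusted p = 0.000997). Klf9 and G6pc1 are in both the glucocorticoid and the thyroid lists.

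**Figure D4:**
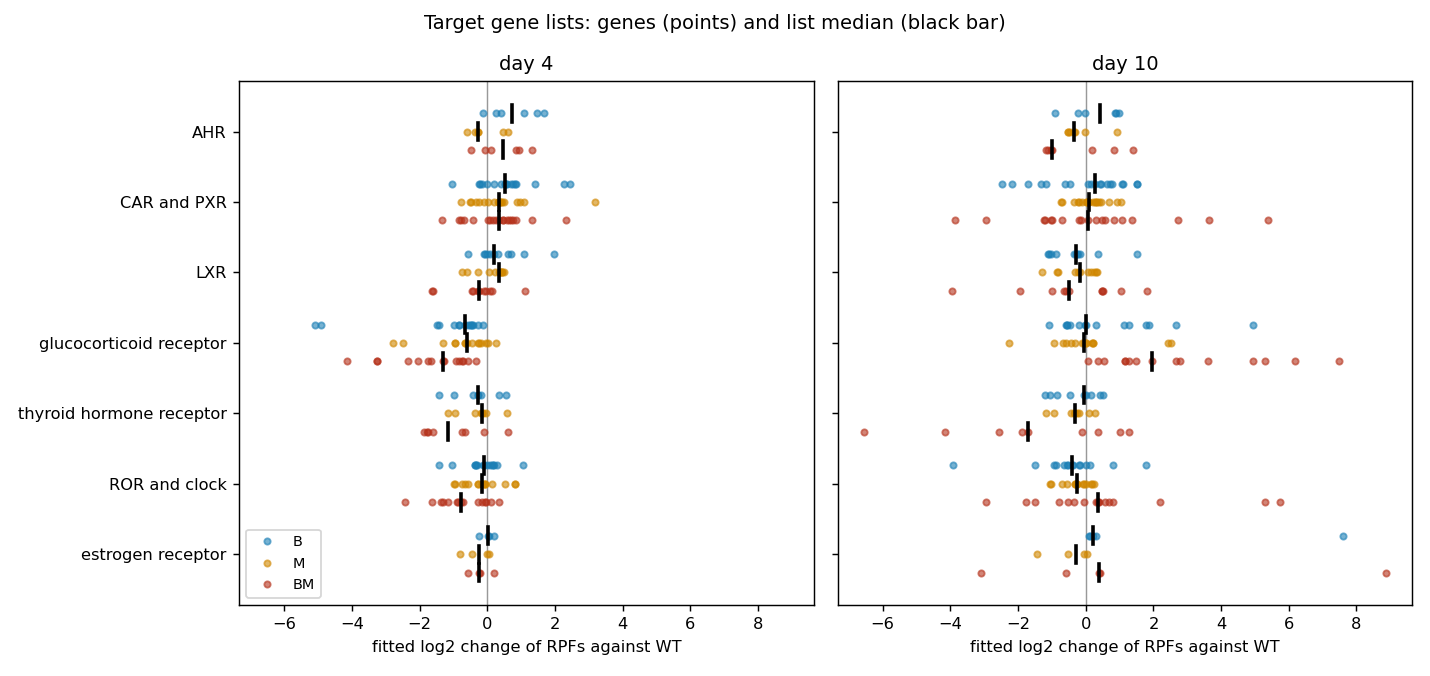
RPF log2 changes against WT of the targets of 7 receptor groups at days 4 and 10, with a point per gene, colours for B, M and BM, and a black bar at the list median. Glucocorticoid receptor targets of BM mice lie left of 0 at day 4 (median -1.32) and right of it at day 10 (median 1.95), and the far right point of the estrogen list is Greb1, whose fitted value against WT mice at 0 depends on the prior count.

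LXR targets split in direction. In BM mice 1 rose and 4 fell of 11 at day 4 (median -0.23, all genes 50.9%), and 3 rose and 5 fell at day 10 (median -0.49, all genes 46.8%). All 11 were called at day 10 without BM mouse 1, 5 rising and 6 falling (median -0.72, all genes 66.3%). Abca1, the cholesterol exporter and index target, was at 1012, 858 and 1048 RPF CPM in WT mice and at 731, 695 and 689 in BM at day 4 (-0.44, SE 0.0924, adjusted p = 0.00266), and it was lower at day 10 too (-0.63, adjusted p = 0.0670). Cyp7a1, the rate-limiting enzyme of bile acid synthesis, had the largest rise of the list at both days, by 1.12 and 1.80, with 354, 407 and 353 RPF CPM against 99.7, 102 and 115 at day 10. Scd1, the stearoyl-CoA desaturase, had the largest fall at day 10, from 3946, 3803 and 4506 to 262, 323 and 214 (-3.95, SE 0.236, adjusted p = 0.000102), and Mylip, which degrades the LDL receptor, the largest at day 4 (-1.63).

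Of 15 ROR and clock targets tested in BM mice at day 4, 9 fell and 0 rose (median -0.77, all genes 50.9%), with Cyp8b1, the sterol 12α-hydroxylase, falling most, from 642, 743 and 741 RPF CPM to 167, 141 and 81.5 (-2.42, SE 0.206, adjusted p = 5.4e-06). At day 10, 4 of 17 rose and 2 fell, a called share below the 46.8% of all genes, and without BM mouse 1, 7 rose and 4 fell (all genes 66.3%). The list had Ciart, a clock repressor, rising most (5.73, from 3, 3 and 2 RPF counts to 108, 306 and 184) and Npas2, a clock activator, falling most (-2.96). Bmal1, the index target, was not called in any comparison, at -0.15 (adjusted p = 0.314) and -0.53 (adjusted p = 0.230) in BM. BM mice of day 10 were at 12.6, 23.2 and 34.1 RPF CPM for Bmal1 against 31.3, 38.1 and 30.6 in WT, and so were widely spread.

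Estrogen receptor targets were few. Of 4 tested in BM at day 4, 2 fell (all genes 50.9%), Igfbp4 by 0.57 most of all. At day 10, 2 of 5 rose and 1 fell (all genes 46.8%), or 3 and 2 without BM mouse 1 (all genes 66.3%), the fall with all 3 mice being that of Lifr, the leukemia inhibitory factor receptor, from 630, 665 and 824 RPF CPM to 106, 67.3 and 74.4 (-3.11, SE 0.234, adjusted p = 0.000166). Greb1, the index target, had 0 RPF counts in all 6 WT libraries and 31, 35 and 18 in B and 116, 71 and 30 in BM at day 10. Set against 3 counts over the 3 WT libraries, that is at least 20.0-fold higher in B and at least 48.3-fold higher in BM, and at least 2.21-fold higher in BM at day 4 (3, 3 and 5 counts). The RNA of Greb1 summed over its isoforms was 21.1 to 47.5 CPM across the mice of all these groups and was not called, while the RPFs came from 1 transcript.

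**Figure D5:**
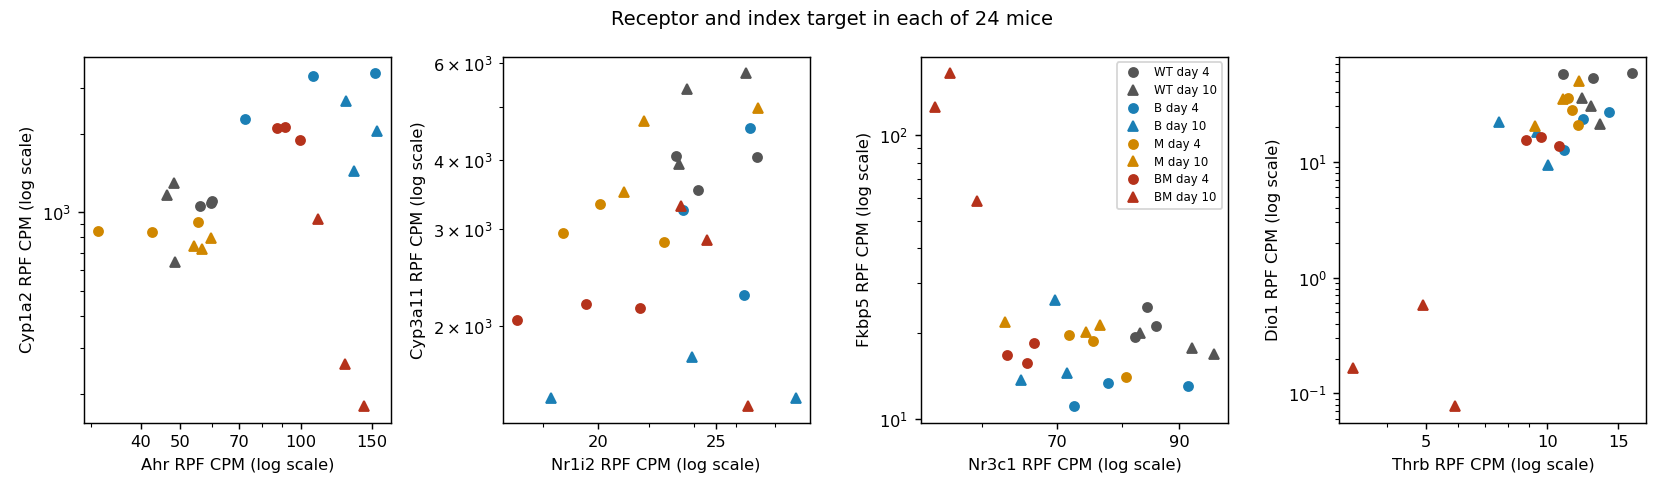
RPF CPM of 4 receptors (horizontal, log scale) and of an index target (vertical, log scale) in the 24 mice, coloured by genotype, with circles for day 4 and triangles for day 10. Nr3c1 and Fkbp5 separate at day 10 in BM mice (Nr3c1 54.5 to 59.5, Fkbp5 58.4 to 165), whereas Thrb and Dio1 are both lowest there.

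The rest of the nuclear receptor family changed in both directions. Of 27 other nuclear receptors tested at day 4, 4 rose and 1 fell in B, 8 rose and 4 fell in M, and 5 rose and 7 fell in BM, where 12.5%, 33.3% and 50.9% of all genes were called. Of 28 tested at day 10, 2 rose and 6 fell in B, 3 rose and 3 fell in M, and 2 rose and 7 fell in BM, where 25.2%, 19.4% and 46.8% were called. Leaving out BM mouse 1, 8 rose and 14 fell of 29 (all genes 66.3%). Ppard, the fatty acid receptor PPARδ, fell most in BM at both days (-1.43 and -2.00), and Nr4a1, an early-response orphan receptor, rose most at day 10 (3.39, from 0.525, 1.13 and 0.721 to 5.98, 6.60 and 12.6).

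For receptor chaperones and coregulators the called share in BM mice did not exceed that of all genes. Of 22 tested, 7 rose and 2 fell at day 4 (all genes 50.9%) and 7 rose and 1 fell at day 10 (all genes 46.8%), or 10 and 4 without BM mouse 1 (all genes 66.3%). At day 4, 2 fell in B (all genes 12.5%), and 5 rose and 3 fell in M (all genes 33.3%). At day 10 Ppargc1a, the coactivator PGC-1α, rose most, from 9.27, 12.5 and 11.9 RPF CPM to 27.4, 173 and 232 (3.67, SE 0.692, adjusted p = 0.00597), and Fkbp4, a cochaperone of steroid receptors, fell most (-1.08). BM mouse 1 was the lowest of the 3 for Ppargc1a.

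Markers of other liver cells moved beside these results. Summed RPF CPM of the 8 Kupffer cell markers at day 4 was 734 to 859 in WT mice, 605 to 707 in B, 484 to 1300 in M and 429 to 451 in BM. At day 10 it was 589 to 805 in WT, 659 to 960 in B, 589 to 839 in M and 943 to 1109 in BM, so BM mice lay below WT at day 4 and above it at day 10, while the M mice of day 4 lay on both sides of WT and those of day 10 overlapped it. The 8 endothelial markers summed at day 4 to 868 to 985 in WT, 903 to 1004 in B, 673 to 852 in M and 722 to 821 in BM, and at day 10 to 887 to 1038, 747 to 925, 671 to 734 and 741 to 884. At day 4 the 8 stellate markers gave 734 to 810 in WT, 728 to 802 in B, 577 to 705 in M and 478 to 603 in BM, and at day 10 they gave 794 to 953, 438 to 717, 640 to 685 and 724 to 755. The stellate sums of all 3 mutant genotypes were thus below WT at day 10. Sums of the 6 cholangiocyte markers at day 4 were 85.7 to 134 in WT, 59.8 to 63.9 in B, 43.8 to 63.0 in M and 36.1 to 53.9 in BM, and 43.7 to 84.3, 36.5 to 63.2, 53.6 to 100.1 and 35.9 to 63.5 at day 10. For the 8 blood cell markers the day 4 sums were 850 to 884 in WT, 636 to 1191 in B, 408 to 639 in M and 399 to 560 in BM, and those of day 10 were 822 to 966, 1225 to 1830, 442 to 728 and 446 to 1907 at day 10, where B mice lay above WT, M mice below it, and BM mice on either side. No gene of these lists was at 0 in all mice of a group, and the part of cell composition in the receptor results was not tested.

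Genes whose RPF levels most resembled those of each receptor were ranked by Pearson's r of log2 CPM over the 24 mice among 11742 genes, as a description, since the mice share their groups. Thrb had the closest matches, Immp1l (0.956), Celsr1 (0.945) and Gucd1 (0.940), followed by Nr3c1 with Serpina1d (0.922), Derl2 (0.912) and Serpind1 (0.911), and Ahr with Rnase4 (0.921), Oat (0.909) and Slc16a10 (0.900). Rora was closest to Rai2 (0.885), Wbp2 (0.879) and Fabp5 (0.877), and Nr1h3 to Acbd4 (0.876), Smdt1 (0.874) and Psmb8 (0.862). The matches of Rxra (St3gal4, Furin, Dtx3l), Esr1 (Sdc4, Vps28, Tent5a), Nr1i3 (Dock4, Hsd17b10, Ubr3) and Nr1i2 (Zfand2b, Eps8l2, Suox) ran from 0.838 down to 0.737. Among the receptors themselves, Nr3c1 and Thrb were the most alike (0.795), and Ahr and Nr3c1 the least (-0.615).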

How the data were processed

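RPF counts per transcript and RNA expected counts and TPM per isoform were deposited by the authors. Per the labels and the study's methods, reads were trimmed with cutadapt 1.18 and deduplicated by unique molecular identifiers. RNA was aligned with Bowtie2 2.3.5.1 and quantified with RSEM 1.3.3, and RPFs with BBmap, on filtered GENCODE vM27 transcripts, leaving out the first 20 and last 10 codons. Here expected counts were summed per gene and rounded (at least 99.92% of the values above 0 were whole), and an RPF transcript without a line in a library (1689 to 3019 per library) was set to 0. TMM scaling, filterByExpr (count 10, total 15) and the quasi-likelihood test of edgeR 4.0.16 in R 4.3.3 were run on the groups compared, with Benjamini-Hochberg adjustment over all genes tested and a threshold of 0.1. CPM are TMM scaled, and TPM were compared within a group, other than the BM and WT means given beside the counts of called genes. Log2 CPM behind the correlations used a pseudocount of 0.5 CPM, and the ratios of RPF to RNA CPM used none. DESeq2 1.42.0 was 1 alternative. The fits were tested on simulated data.

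Groups followed the labels. Members and lists were chosen with earlier results of these data known. Named were all 9 members, 8 index targets whatever their values, the called gene of each receptor list with the largest rise and fall in BM against WT without overlap of mice, and the 3 genes most like each member (at least 1 CPM in at least 3 mice). Some genes that this rule names are not reported here. The labels give the virus dose once per ml and once per mouse. Protein sequences were not used here.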

Additional observations from a re-analysis of the deposited data

Results flagged for a closer look

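A tested difference between the days in the change against WT, day 10 minus day 4, set apart 7 values. In B mice Rxra differed by 0.80 in RPFs (edgeR adjusted p = 0.0402), with B mice below WT at day 4 and at 165, 155 and 98.7 RPF CPM at day 10 beside 117, 98.5 and 105 in WT.

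In BM mice Ahr differed by 0.73 in RPFs, from a change of 0.68 at day 4 to 1.40 at day 10. Nr3c1 differed by -0.34 in RPFs and by -0.76 in RNA, and Thrb by -1.01 in RPFs and by -1.21 in RNA. In RPFs both genes were lower than WT at both days, whereas the RNA of Nr3c1 in BM mice was not called at day 4 (-0.22, adjusted p = 0.117). Rxra RNA differed by 0.52 in BM mice. The RPF difference of Nr3c1 was lost on leaving out any 1 of 10 of the 12 mice, and that of Rxra RNA on leaving out any 1 of 7, whereas those of Ahr, Thrb and Nr3c1 RNA were called under every alternative. Injection and harvest dates are not given in the sources used here, and the part of a batch in these differences was not tested.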

How the results depend on the processing

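Of 1215 recomputed values of the 100 called member results, 989 kept their call, 226 lost it and 0 changed direction, and 51 of the 100 were called under every alternative. With fewer mice, the leave-one-out counts of called genes ran, in RPFs, from 3 to 4 in B, 3 to 5 in M and 6 to 8 in BM at day 4 and from 2 to 5, 2 to 2 and 5 to 8 at day 10. In RNA they ran from 1 to 3, 0 to 4 and 5 to 8 at day 4 and from 2 to 4, 2 to 3 and 5 to 8 at day 10, and in TE of BM from 0 to 0 at day 4 and 0 to 3 at day 10. BM against B gave 2 to 5 (RPF) and 2 to 3 (RNA) at day 4 and 1 to 6 and 2 to 6 at day 10, and BM against M gave 2 to 5 and 2 to 5 at day 4 and 2 to 6 and 4 to 7 at day 10. Differences between days gave 1 to 2 (RPF) and 0 to 2 (RNA) in B, 0 to 1 and 0 to 0 in M, and 2 to 3 and 2 to 4 in BM. With all 8 groups in one fit, day 4 counts were 2 (RPF) and 1 (RNA) in B, 2 and 0 in M, and 0 for TE in BM. The shares of all genes called were 4.775% and 3.7957% in B, 19.908% and 14.219% in M, and 1.1526% for TE in BM. At an adjusted p under 0.05, RNA in M at day 4 gave 1, TE in BM at day 4 gave 0, RPFs and RNA in B at day 10 gave 3 and 2, RNA in M at day 10 gave 2, and RPFs of BM against B at day 4 gave 2. The share of all genes called at 0.05 is not given here, so these counts describe the threshold only. TE in BM at day 4 gave 0 with no filter and 0 with 10 counts in every library, and RNA in B at day 10 gave 2 on the RPF transcript. The cause of these shifts was not tested, other than fewer samples or a stricter threshold where that is the alternative. With a mouse term as a block, TE gave 2 in BM at day 4 and 1 at day 10, where 6.16% and 5.21% of all genes were called. The replicate numbers of the labels share only a number (correlations of same-numbered mice from -0.234 to 0.280, never all over 0.1 in a comparison, each mouse best with its own number only in B against WT at day 4 in RPFs). With that replicate block, RNA of BM against B at day 4 gave 4, RNA of BM against M at day 4 gave 7, the day difference in B gave 2 (RPF) and 1 (RNA), and 95 of 99 called values were kept. The share of all genes called with that block is not given here, so its counts describe the fit only. Lists without BM mouse 1 were added after seeing the data. The lowest depths behind a member were 40 RPF counts (Thrb) and 45 RNA counts (Nr1i3) in a library.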
